A study of Rattus norvegicus with 6 samples.

Results

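Tubulins and kinesins were followed as the genes of microtubules and of the motors that walk on them. Members were the protein-coding genes of the deposited table whose symbol begins with Tuba, Tubb, Tubg or Kif followed by a digit. This gave 56 of 34510 genes, made up of 17 tubulin genes and 39 genes named Kif. Among these, Kif1bp encodes a protein that binds kinesins and is no motor. The 6 libraries came from neonatal rat ventricular cardiomyocytes, heart muscle cells taken from newborn rats and cultured. The Trim28 group (n = 3) was infected with an adenovirus that expresses TRIM28, a corepressor that acts on chromatin, per the series' design text. The Bgal group (n = 3) is given by that name alone, and the labels do not say which virus it received. The sources used here do not state rat strain, dose, time after infection or number of animals. Nothing in the labels says whether the libraries are separate cultures, so a p-value here reflects the scatter among the 6 libraries, which may be technical. The series asks how TRIM28 bears on ferroptosis, a death of cells driven by iron, and the genes described here are not part of that question.

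Microtubules are hollow polymers of paired alpha- and beta-tubulin. Gamma-tubulin sits in ring complexes that start new polymers. Mammals carry several alpha and beta genes, called isotypes, whose proteins differ mainly in their acidic tails. In heart muscle cells microtubules run as a lattice between the myofibrils, and tubulin whose last tyrosine has been removed is known to stiffen that lattice. Kinesins are motors that use ATP. Some carry vesicles, mitochondria and messenger RNA along the lattice, some build the mitotic spindle, some serve the cilium, and some take microtubules apart at their ends.

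Levels are in FPKM, fragments scaled by gene length and library total, so that genes can be compared per length. Changes are differences in log2(FPKM + 1), Trim28 minus Bgal, from limma over all 14808 genes that reached 0.5 FPKM in 3 or more libraries, and a call is an adjusted p of at most 0.05. That scale understates the change of low genes, so folds are ratios of mean FPKM. Reads assigned to genes ranged from 26146166 to 28298731 in the Trim28 libraries and from 28574951 to 34593292 in the Bgal libraries. Trim28 itself, the check of the labels, stood at 2923, 2890 and 980 FPKM in Trim28 replicates 1 to 3, against 77.6 to 87.8 FPKM in the Bgal libraries, so Trim28 replicate 3 carried less of the transcript than the other Trim28 libraries. Of 10 cardiomyocyte markers 9 were found, of which 3 rose and 4 fell. Their summed level was 16506 to 17838 FPKM in the Trim28 libraries and 16031 to 17035 FPKM in the Bgal libraries. That sum joins opposite moves, since Nppa, Myh7 and Actn2 rose and Tnnt2, Tnni3, Mybpc3 and Pln fell. Nppa alone stood at 6368 FPKM in the Trim28 libraries and 4335 FPKM in the Bgal libraries by the means. The near-equal sums therefore do not show that cardiomyocyte transcripts were unchanged. Many markers of other cells moved with the groups. For the counts of markers below, 20.1% of all tested genes were called higher and 21.1% lower. Summed fibroblast markers stood at 1016 to 1081 FPKM in the Trim28 libraries and 552 to 576 FPKM in the Bgal libraries, with 9 of 10 called higher. Leukocyte and macrophage markers stood at 72.7 to 74.4 FPKM in the Trim28 libraries and 31.2 to 32.4 FPKM in the Bgal libraries, with 8 of 8 tested called higher. Mural and smooth muscle markers stood at 1645 to 1744 FPKM in the Trim28 libraries and 808 to 1058 FPKM in the Bgal libraries, with 8 of 10 higher and 1 lower. Endothelial markers stood at 95.6 to 98.9 FPKM in the Trim28 libraries and 43.2 to 51.6 FPKM in the Bgal libraries, with 3 of 6 tested higher and 1 lower. Most of that sum was Eng, at 82.3 FPKM in the Trim28 libraries and 33.0 FPKM in the Bgal libraries by the means. The marker that fell was Kdr, at 6.06 FPKM in the Trim28 libraries and 8.07 FPKM in the Bgal libraries. Both were named after their values were known. The part of these cells in the results below was not tested. In bulk libraries, fewer cells of a type and less of an RNA per cell cannot be told apart.

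More tubulin genes rose than fell in the Trim28 libraries, and more kinesin genes fell than rose. Of 17 tubulin genes 13 were tested, of which 6 rose, 1 fell and 6 did not pass, with a median log2 change of 0.24. Of 39 genes named Kif 28 were tested, of which 4 rose, 13 fell and 11 did not pass, with a median of -0.18. The median over all tested genes was -0.02, and 41.2% of them were called in either direction, 20.1% higher and 21.1% lower. Among the tested members 58.5% were called. The libraries of the 2 groups did not overlap for 31 of the 41 tested members, 8 of them tubulins and 23 named Kif, against 53.8% of all tested genes. Kif5a and Kif21b, both among these 23, passed the filter only or mainly through the group where they were higher. Kif21b is also among the 4 genes named Kif that rose. The share called higher was 46.2% among tubulins and 14.3% among genes named Kif, and the share called lower was 7.69% among tubulins and 46.4% among genes named Kif. Without each library in turn, between 2 and 6 tubulins were called higher. That count was 2 without Trim28 replicate 1, 3 without Trim28 replicate 2 or Bgal replicate 1, and 4 without Trim28 replicate 3 or Bgal replicate 3. Between 8 and 10 genes named Kif were called lower, with 8 without Trim28 replicate 1 or Bgal replicate 1. Those called higher numbered 2 without Bgal replicate 1 or Bgal replicate 3, and 2 tubulins were called lower without Bgal replicate 3.

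The 3 abundant alpha-tubulin genes did not move alike. Tuba4a rose, while Tuba1a and Tuba1b, neighbouring genes of closely related isotypes, were lower by their means and did not pass. Tuba4a (ENSRNOG00000003597, chromosome 9, 82415605 to 82419288, minus strand) is known in mouse and human as the alpha isotype made without a terminal tyrosine. It stood at 222, 218 and 212 FPKM in the Trim28 libraries, against 183, 199.8 and 156 FPKM in the Bgal libraries. The groups did not overlap, and Bgal replicate 3 was the lowest of the 6. The means were 217 ± 5.32 FPKM in the Trim28 libraries and 180 ± 22.1 FPKM in the Bgal libraries (SD, n = 3 each). This is a log2 change of 0.28 (SE 0.09, limma adjusted p = 0.0331). The call was lost without Trim28 replicate 1 (0.0915), Trim28 replicate 2 (0.0818), Trim28 replicate 3 (0.0561) or Bgal replicate 1 (0.0632), and also without the filter (0.0731) or the intensity trend (0.062).

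Tuba1b (ENSRNOG00000053468, chromosome 7, 140614752 to 140617721, minus strand) stood at 241, 249 and 231 FPKM in the Trim28 libraries, against 288, 318 and 240.2 FPKM in the Bgal libraries. Those ranges overlapped through Bgal replicate 3. The difference of -0.22 on the log2 scale missed the threshold (limma adjusted p = 0.107, 95% confidence interval -0.45 to 0.01), but was called without Bgal replicate 3 (0.00752) and with limma-voom on the recovered reads (0.0493). Tuba1a (ENSRNOG00000060728, chromosome 7, 140637287 to 140640953, minus strand) stood at 138, 138 and 131 FPKM in the Trim28 libraries, against 146, 174 and 145 FPKM in the Bgal libraries. All Trim28 values lay below all Bgal values, yet the difference of -0.18 on the log2 scale missed the threshold (limma adjusted p = 0.0842, 95% confidence interval -0.36 to -0.01), and was called with limma-voom (0.0384). Tuba8, a divergent alpha isotype, stood at 5.99 ± 1.28 FPKM in the Trim28 libraries and 6.57 ± 0.696 FPKM in the Bgal libraries (SD, n = 3 each) and did not pass (limma adjusted p = 0.52).

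The largest change of any member on the log2 scale was that of Tuba1c, another gene of the same chromosome 7 cluster (ENSRNOG00000021438, 140716113 to 140723714, plus strand). It lies 75159 bases beyond Tuba1a, which in turn lies 19565 bases beyond Tuba1b, in the coordinates of the deposited table. Tuba1c stood at 2.29, 2.76 and 2.09 FPKM in the Trim28 libraries, against 22.2, 13.4 and 16.5 FPKM in the Bgal libraries. Every Bgal value was several times every Trim28 value, although the Bgal libraries also differed among themselves. In reads, these values rest on 98, 111 and 92 in the Trim28 libraries and on 1208, 596 and 869 in the Bgal libraries. The gene was 7.29-fold lower, with a log2 change of -2.42 (SE 0.17, limma adjusted p = 0.000108).

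The proteins of the Tuba1 genes are nearly identical, so reads may be split between them or left out, and the sources used here do not state how such reads were counted. Their sum was therefore also taken. It stood at 382, 390.1 and 364 FPKM in the Trim28 libraries, against 456, 505 and 402 FPKM in the Bgal libraries. The groups did not overlap. Fitted as a further row of the table, the sum fell by 0.26 on the log2 scale (SE 0.08, limma adjusted p = 0.04). Tuba1c made up 0.600%, 0.708% and 0.574% of this sum in the Trim28 libraries and 4.86%, 2.65% and 4.10% in the Bgal libraries. The call of the sum was lost in 5 of 6 fits that left out a library, with adjusted p between 0.0728 without Trim28 replicate 2 and 0.104 without Trim28 replicate 3, and values of 0.0881 without Trim28 replicate 1, 0.0916 without Bgal replicate 1 and 0.085 without Bgal replicate 2.

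The promoters of these 3 genes are printed because Tuba1c alone of the 3 was called and fell far more than its neighbours differed. The sequences run from 250 bases before to 50 bases after the start of each gene in RefSeq on build GRCr8. Tuba1b lies at chr7:131972538-131972837 on the minus strand, Tuba1a at chr7:131995770-131996069 on the minus strand and Tuba1c at chr7:132070734-132071033 on the plus strand. Capitals mark CCAAT, the letters known to be bound by NF-Y, and TTTGAA or TTCGAA, known as the cell cycle genes homology region, each on either strand.
Tuba1b: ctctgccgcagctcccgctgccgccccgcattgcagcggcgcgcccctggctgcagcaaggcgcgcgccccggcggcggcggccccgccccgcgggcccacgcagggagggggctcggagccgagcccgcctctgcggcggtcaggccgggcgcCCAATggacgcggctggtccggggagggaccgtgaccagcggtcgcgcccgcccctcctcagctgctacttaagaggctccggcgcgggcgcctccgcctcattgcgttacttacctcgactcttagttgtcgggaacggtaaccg
Tuba1a: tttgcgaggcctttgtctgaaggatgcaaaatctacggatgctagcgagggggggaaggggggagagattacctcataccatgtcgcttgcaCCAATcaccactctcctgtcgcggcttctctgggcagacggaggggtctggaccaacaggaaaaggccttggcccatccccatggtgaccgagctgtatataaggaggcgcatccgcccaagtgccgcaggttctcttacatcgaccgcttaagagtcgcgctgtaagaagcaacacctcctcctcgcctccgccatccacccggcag
Tuba1c: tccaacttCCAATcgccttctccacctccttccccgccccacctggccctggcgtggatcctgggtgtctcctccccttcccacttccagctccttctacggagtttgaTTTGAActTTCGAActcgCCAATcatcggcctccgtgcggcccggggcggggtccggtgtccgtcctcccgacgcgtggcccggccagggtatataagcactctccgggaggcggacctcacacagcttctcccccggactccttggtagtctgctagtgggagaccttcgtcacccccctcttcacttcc
All 3 hold CCAAT. Tuba1c is the only one of the 3 with TTTGAA, whose first base lies 141 bases before the start, and with TTCGAA, whose first base lies 133 bases before the start. It holds CCAAT 242 and 123 bases before the start. TTCGAA was found in 1.69% of the 33469 promoters in the table and TTTGAA in 18.3%, against 37.5% for CCAAT. A match describes the letters of this window and is not evidence of binding.

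**Figure D1:**
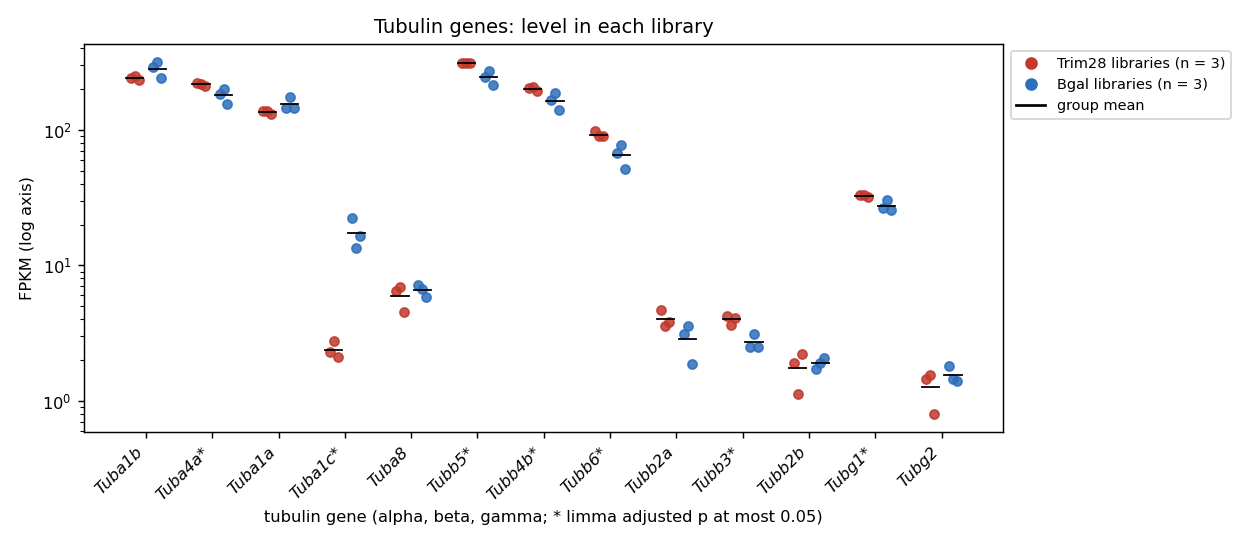
FPKM on a log axis for the 13 tested tubulin genes, in alpha, beta and gamma order, with a point for each library and a line at the group mean (n = 3 each). Tuba1c is the gene whose groups stand farthest apart, at 2.38 FPKM in the Trim28 libraries and 17.3 FPKM in the Bgal libraries by their means, and the Bgal points of the abundant genes spread more widely than the Trim28 points.

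Beta-tubulin genes rose or did not pass. Of 6 tested, 4 rose and 0 fell, against 20.1% higher and 21.1% lower among all tested genes. The median log2 change of the 6 was 0.37. Tubb5 (ENSRNOG00000061216, chromosome 20, 3422461 to 3426371, plus strand), the widely expressed class I isotype and the highest tubulin here, stood at 311, 312 and 309 FPKM in the Trim28 libraries, against 246, 273 and 213 FPKM in the Bgal libraries. The Trim28 values were almost equal, and all lay above the Bgal values. It rose by 0.35 on the log2 scale (SE 0.08, limma adjusted p = 0.0127), and no left-out library ended that call.

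Tubb6 (ENSRNOG00000018371, chromosome 18, 63130542 to 63140181, plus strand), an isotype known from mouse to be raised in regenerating and dystrophic muscle, stood at 97.3, 89.5 and 89.4 FPKM in the Trim28 libraries, against 66.8, 76.7 and 51.1 FPKM in the Bgal libraries. The groups did not overlap, and the rise was 1.42-fold (log2 change 0.52, SE 0.13, limma adjusted p = 0.018). Without Trim28 replicate 1 its adjusted p was 0.0557. Tubb4b (ENSRNOG00000010170, chromosome 3, 2441733 to 2444281, minus strand), a broadly expressed isotype also found in cilia, stood at 203, 207 and 192 FPKM in the Trim28 libraries, against 166, 186 and 139.9 FPKM in the Bgal libraries. Here too the groups stood apart, with a log2 change of 0.30 (SE 0.10, limma adjusted p = 0.0428). That call was lost without any 1 library other than Bgal replicate 2, with adjusted p of 0.102, 0.114 and 0.0601 without Trim28 replicates 1, 2 and 3 and of 0.0807 and 0.0562 without Bgal replicates 1 and 3. It was also lost without the filter (0.0922) or the intensity trend (0.0732).

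Tubb3 (ENSRNOG00000017209), the class III isotype used as a marker of neurons, was low and rose 1.48-fold. It stood at 4.26, 3.65 and 4.12 FPKM in the Trim28 libraries, against 2.50, 3.14 and 2.50 FPKM in the Bgal libraries (log2 change 0.43, SE 0.10, limma adjusted p = 0.0138). Neuron markers outside the tubulins did not rise with it. Of 12 such markers 4 were tested, 2 fell and 0 rose, and their sum was 14.1 to 17.6 FPKM in the Trim28 libraries and 23.0 to 25.0 FPKM in the Bgal libraries. Schwann cell markers summed to 5.27 to 6.37 FPKM in the Trim28 libraries and 4.57 to 5.35 FPKM in the Bgal libraries, with 0 of 5 tested called. None of the neuron or Schwann cell markers found was listed at 0 in every library.

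The neighbouring genes Tubb2a and Tubb2b, which lie 10347 bases apart on chromosome 17, are near copies and neither passed. Tubb2a stood at 4.65, 3.55 and 3.81 FPKM in the Trim28 libraries, against 3.13, 3.56 and 1.88 FPKM in the Bgal libraries (limma adjusted p = 0.119). Tubb2b stood at 1.89, 1.12 and 2.23 FPKM in the Trim28 libraries, against 1.72, 1.91 and 2.07 FPKM in the Bgal libraries (limma adjusted p = 0.662). Both pairs of groups overlapped. Their sum was 5.75 ± 0.968 FPKM in the Trim28 libraries and 4.75 ± 0.767 FPKM in the Bgal libraries (SD, n = 3 each) and did not pass (log2 difference 0.23, limma adjusted p = 0.234, 95% confidence interval -0.10 to 0.56). The sum of Tubb4a and Tubb4b rose by 0.30 on the log2 scale (SE 0.10, limma adjusted p = 0.0422), and since Tubb4a was low it repeats Tubb4b, including its loss without the same libraries (adjusted p 0.056 to 0.113).

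Gamma-tubulin showed one abundant and one low gene, side by side on chromosome 10 with 31800 bases between them. Tubg1 (ENSRNOG00000020213, 89030865 to 89037455, plus strand) stood at 32.8, 32.8 and 32.1 FPKM in the Trim28 libraries, against 26.5, 30.1 and 25.5 FPKM in the Bgal libraries. The groups did not overlap, and it rose by 0.24 on the log2 scale (SE 0.07, limma adjusted p = 0.0216). Tubg2 (ENSRNOG00000006494), the minor copy, stood at 1.44, 1.56 and 0.798 FPKM in the Trim28 libraries, against 1.81, 1.45 and 1.41 FPKM in the Bgal libraries, and did not pass (limma adjusted p = 0.382). The sum of both rose by 0.22 (SE 0.06, limma adjusted p = 0.0291). Calls were lost without Trim28 replicate 1 or 2 or without Bgal replicate 1 or 3, at 0.0582 to 0.0704 for Tubg1 and 0.0755 to 0.0859 for the sum.

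Summed over all genes of a kind, beta-tubulin rose and alpha-tubulin did not pass. The 8 beta genes summed to 623, 617 and 601 FPKM in the Trim28 libraries, against 487, 544 and 411 FPKM in the Bgal libraries. The log2 change was 0.36 (SE 0.10, limma adjusted p = 0.02), with an adjusted p of 0.0583 without Trim28 replicate 1 and 0.0575 without Trim28 replicate 2. The 7 alpha genes summed to 611, 615 and 581 FPKM in the Trim28 libraries, against 646, 712 and 564 FPKM in the Bgal libraries. These overlapped, and the difference of -0.08 on the log2 scale missed the threshold (limma adjusted p = 0.462, 95% confidence interval -0.28 to 0.11). Within each library the ratio of summed beta to summed alpha FPKM was 1.02, 1.00 and 1.03 in the Trim28 libraries and 0.754, 0.765 and 0.729 in the Bgal libraries. The ratio spread less between libraries of a group than either sum did, and the groups stood apart (exact permutation p = 0.1, two-sided, the smallest that 3 against 3 allows).

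The groups also differed in how alpha-tubulin transcripts were shared among isotypes. Tuba4a made up 36.4%, 35.4% and 36.5% of summed alpha-tubulin FPKM in the Trim28 libraries and 28.3%, 28.1% and 27.7% in the Bgal libraries. Its ratio to the Tuba1 sum was 0.574 ± 0.0138 in the Trim28 libraries and 0.395 ± 0.00664 in the Bgal libraries (SD, n = 3 each, exact permutation p = 0.1, the smallest possible). Tuba1b made up 39.9% ± 0.555 of alpha-tubulin FPKM in the Trim28 libraries and 43.96% ± 1.18 in the Bgal libraries. Tubb5 held about the same share of beta-tubulin FPKM, at 50.6% ± 0.707 in the Trim28 libraries and 50.9% ± 0.924 in the Bgal libraries (exact permutation p = 0.7). Tubb6 made up 15.0% ± 0.567 in the Trim28 libraries and 13.4% ± 0.872 in the Bgal libraries (exact permutation p = 0.1). These shares are of one another within a library, so a rise of one share lowers the rest.

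**Figure D2:**
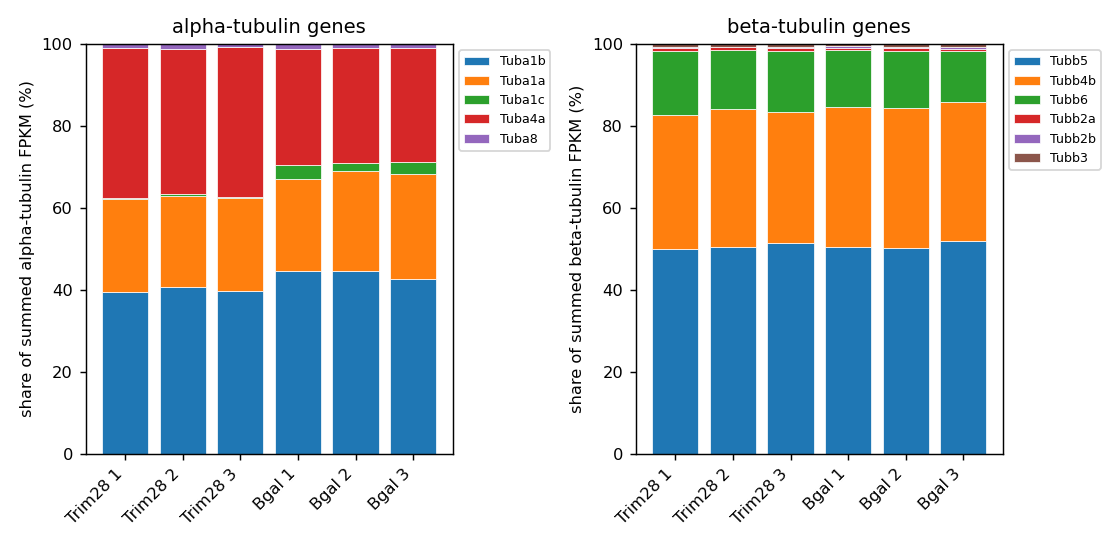
Stacked bars give each gene's share in percent of summed alpha-tubulin FPKM (left) and beta-tubulin FPKM (right) in each library, Trim28 libraries left of Bgal libraries. The Tuba4a share is 35.4% to 36.5% in the Trim28 libraries and 27.7% to 28.3% in the Bgal libraries, while the Tubb5 share lies between 49.98% and 51.9% in all 6.

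The tested tubulins tended to share their lowest and highest libraries. Bgal replicate 3 was the lowest Bgal library for 10 of the 13 tested tubulins and Bgal replicate 2 the highest for 9. Trim28 replicate 3, the library with the least Trim28, was the lowest Trim28 library for 10 of the 13. Among the 28 tested genes named Kif no Trim28 library was the lowest for more than 11, and no Bgal library for more than 12. How often each library was lowest over all tested genes was not counted, so this is not shown to be particular to tubulins. Upper-quartile scaling factors were 1.018, 1.043 and 0.9999 in Bgal replicates 1 to 3. They were 0.988, 0.973 and 0.980 in Trim28 replicates 1 to 3.

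The remaining 4 tubulin genes were too low to test. Tubb4a, a brain isotype, stood at 0.374 ± 0.142 FPKM in the Trim28 libraries and 0.244 ± 0.0602 FPKM in the Bgal libraries. Tuba3a, an alpha isotype known from testis, had 4 reads in Trim28 replicate 2 and 3 and 4 reads in Bgal replicates 1 and 2. Tuba3b had 4 reads in Trim28 replicate 2 alone. Tubb1, the isotype of platelets and their precursors, was listed at 0 in every library.

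Cargo motors made up most of the kinesin transcripts. The 4 highest, Kif5b, Kif1c, Kif13a and Kif1b, gave 88.2%, 88.1% and 88.0% of the summed FPKM of all Kif motors in the Trim28 libraries and 84.1%, 84.2% and 84.7% in the Bgal libraries. Of 10 tested cargo motors 3 rose, 3 fell and 4 did not pass. Among the 3 that rose is Kif21b, which passed the filter mainly through the Trim28 libraries, where it was higher. These shares of 30% higher and 30% lower stand against 20.1% higher and 21.1% lower among all tested genes. Kif5b (ENSRNOG00000017466, chromosome 17, 54181419 to 54212096, plus strand) is the widely expressed heavy chain of kinesin-1 and carries mitochondria and messenger RNA. It stood at 237, 227 and 227 FPKM in the Trim28 libraries, against 169.6, 173 and 192 FPKM in the Bgal libraries. Every Trim28 value was above every Bgal value. The rise was 1.29-fold (log2 change 0.37, SE 0.06, limma adjusted p = 0.00196). Its share of kinesin FPKM was 39.97% ± 0.721 in the Trim28 libraries and 33.6% ± 1.59 in the Bgal libraries (SD, n = 3 each, exact permutation p = 0.1, the smallest possible).

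Kif1b (ENSRNOG00000057626, chromosome 5, 165938576 to 166133491, minus strand), which carries mitochondria and synaptic vesicle precursors, moved the other way. It stood at 38.3, 37.7 and 35.7 FPKM in the Trim28 libraries, against 46.5, 46.1 and 48.7 FPKM in the Bgal libraries. The groups were well apart, and the fall was by 0.33 on the log2 scale (SE 0.05, limma adjusted p = 0.0015). Kif1c (ENSRNOG00000031364), a motor of vesicles and messenger RNA, was about as abundant as Kif5b in the Bgal libraries in FPKM. It stood at 184, 191 and 184 FPKM in the Trim28 libraries, against 174, 181 and 173 FPKM in the Bgal libraries, and did not pass (log2 difference 0.09, limma adjusted p = 0.122, 95% confidence interval -0.01 to 0.18), though it was called higher under upper-quartile scaling (0.0267). Kif13a (ENSRNOG00000001455), a motor of endosomes, rose with little spread in either group. It stood at 53.3, 52.2 and 54.9 FPKM in the Trim28 libraries, against 47.1, 45.6 and 46.1 FPKM in the Bgal libraries (log2 change 0.20, SE 0.04, limma adjusted p = 0.00661).

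The other cargo motors were lower in level. Kif21a, which pauses microtubule growth at the cell cortex, fell 1.30-fold, at 6.93, 8.21 and 7.73 FPKM in the Trim28 libraries, against 9.69, 9.58 and 10.5 FPKM in the Bgal libraries (limma adjusted p = 0.0113). Kif16b, a motor of early endosomes, fell 1.31-fold, at 3.81 ± 0.161 FPKM in the Trim28 libraries and 5.00 ± 0.140 FPKM in the Bgal libraries (SD, n = 3 each, limma adjusted p = 0.0124). Kif21b, the relative of Kif21a, rose, at 0.917, 1.24 and 1.03 FPKM in the Trim28 libraries, against 0.476, 0.670 and 0.414 FPKM in the Bgal libraries (limma adjusted p = 0.0253). It passed the filter mainly through the Trim28 libraries, since 1 Bgal library reached 0.5 FPKM, and its call was lost without Trim28 replicate 2 (0.0815), Trim28 replicate 3 (0.0513), Bgal replicate 1 (0.0742) or Bgal replicate 3 (0.0741). Its call and non-overlap therefore do not count as support for a rise.

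Kinesins known mainly from neurons were low. Kif1a stood at 2.72 ± 0.113 FPKM in the Trim28 libraries and 3.19 ± 0.392 FPKM in the Bgal libraries (SD, n = 3 each, limma adjusted p = 0.207). Kif5a, the neuronal kinesin-1 chain, reached 0.5 FPKM in Bgal libraries alone. It stood at 0.486, 0.389 and 0.417 FPKM in the Trim28 libraries, against 0.642, 0.692 and 0.646 FPKM in the Bgal libraries (limma adjusted p = 0.152). Its groups did not overlap, and it was called lower with limma-voom (adjusted p = 0.0183) or without the intensity trend (0.0244). Because it entered the test only through the group where it was higher, neither its non-overlap nor these calls count as support for a fall. Kif5c was not tested, at 0.531 ± 0.187 FPKM in the Trim28 libraries and 0.339 ± 0.0751 FPKM in the Bgal libraries. Kif13b, a motor of membrane cargo, did not pass either, at 5.07 ± 0.0353 FPKM in the Trim28 libraries and 5.43 ± 0.186 FPKM in the Bgal libraries (limma adjusted p = 0.372).

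**Figure D3:**
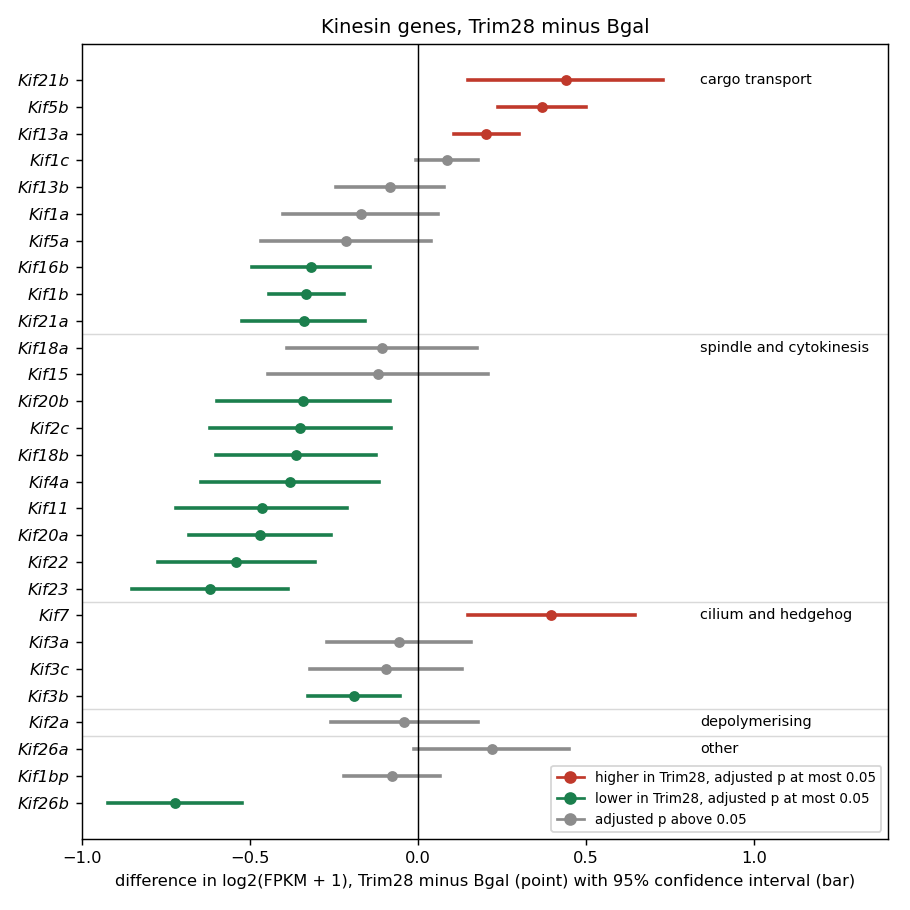
Differences in log2(FPKM + 1), Trim28 minus Bgal, for the 28 tested genes named Kif, grouped by role, with points for the estimate and bars for the 95% confidence interval. All 10 spindle and cytokinesis kinesins lie left of 0 and 8 of them pass, while the cargo motors lie on both sides.

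Most spindle and cytokinesis kinesins fell. Of 10 tested, 8 fell, 0 rose and 2 did not pass, against 21.1% of all tested genes called lower, and the median log2 change was -0.37. The counts and the sum below depend on which genes were put in this group. Kif2a, a more abundant depolymerising kinesin that did not pass, was placed in another group. Without single libraries, 4 to 6 of the 10 were called lower, with 4 without Trim28 replicate 1 or Bgal replicate 1 and 5 without Trim28 replicate 2, Trim28 replicate 3 or Bgal replicate 3. Kif23 (ENSRNOG00000014080, chromosome 8, 66866082 to 66893196, minus strand), the motor of the central spindle in dividing cells, stood at 1.39, 1.34 and 1.54 FPKM in the Trim28 libraries, against 2.70, 2.996 and 2.48 FPKM in the Bgal libraries. All Trim28 values lay well below the Bgal values. It was 1.92-fold lower (log2 change -0.62, SE 0.10, limma adjusted p = 0.00258). Kif22 (ENSRNOG00000020281, chromosome 1, 198461169 to 198476476, minus strand), which binds chromosome arms, stood at 3.18, 3.06 and 3.45 FPKM in the Trim28 libraries, against 5.29, 5.73 and 4.50 FPKM in the Bgal libraries. The groups again did not overlap (log2 change -0.54, SE 0.10, limma adjusted p = 0.00455).

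Kif20a, needed for cytokinesis, stood at 3.74, 3.24 and 3.09 FPKM in the Trim28 libraries, against 5.25, 4.73 and 5.11 FPKM in the Bgal libraries (log2 change -0.47, SE 0.09, limma adjusted p = 0.0054). Kif11, which slides spindle microtubules apart, stood at 1.20, 1.06 and 1.51 FPKM in the Trim28 libraries, against 2.07, 2.10 and 2.14 FPKM in the Bgal libraries (log2 change -0.46, SE 0.11, limma adjusted p = 0.0124). In both genes the Trim28 libraries lay below every Bgal library. The other 4 that fell were Kif2c, Kif4a, Kif18b and Kif20b, at 0.647 to 1.17 FPKM on average in the Trim28 libraries and 1.14 to 1.77 FPKM in the Bgal libraries, with limma adjusted p of 0.0248 to 0.0443. Each of these rests on 254 to 469 reads in the Trim28 libraries together and on 512 to 852 in the Bgal libraries together.

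The calls of these 4 low genes depended on single libraries and on the settings. With a replicate block all 4 calls were lost (limma adjusted p 0.0518 to 0.0931). In limma, Kif20b was lost without any 1 library (adjusted p 0.0557 to 0.121), Kif18b without any but Bgal replicate 3 (0.0523 to 0.079), Kif4a without Trim28 replicate 1 or 2 or Bgal replicate 1 or 3 (0.0666 to 0.0909) and Kif2c without Trim28 replicate 1 or 3 or Bgal replicate 1 or 3 (0.0816 to 0.135). Kif20b and Kif2c were also lost without the filter (0.0655 and 0.0798) and under upper-quartile scaling (0.0612 and 0.0709). Kif18a, which damps chromosome movement, and Kif15, a spindle motor related in work to Kif11, did not pass. Kif18a stood at 0.952, 0.806 and 0.856 FPKM in the Trim28 libraries, against 1.17, 1.11 and 0.782 FPKM in the Bgal libraries. Kif15 stood at 0.749, 0.733 and 0.830 FPKM in the Trim28 libraries, against 0.711, 1.30 and 0.809 FPKM in the Bgal libraries, where Bgal replicate 2 stood alone. Kif14, a motor of the midbody, was too low to test, at 0.225 ± 0.0498 FPKM in the Trim28 libraries and 0.317 ± 0.0327 FPKM in the Bgal libraries.

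As a share of each gene's Bgal mean, the median over the 10 tested spindle kinesins was 60.3%, 62.6% and 66.6% in Trim28 replicates 1 to 3, against 103%, 104% and 92.6% in Bgal replicates 1 to 3. The summed level of all 11 was 14.8, 14.4 and 15.4 FPKM in the Trim28 libraries and 23.7, 23.96 and 22.0 FPKM in the Bgal libraries (exact permutation p = 0.1, two-sided, the smallest possible). Most of a mixed list of S phase and mitosis markers fell in the same libraries. Of 11 S phase and mitosis markers 8 fell, 0 rose and 3 did not pass, against 21.1% of all tested genes called lower. The sum of these markers was 67.5 to 72.4 FPKM in the Trim28 libraries and 84.2 to 89.6 FPKM in the Bgal libraries. Those that did not pass were the replication genes Pcna (limma adjusted p = 0.925) and Mcm2 (0.264) and the mitotic kinase gene Aurkb (0.571), named after their values were known. Which cells of the culture carried these transcripts was not tested.

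**Figure D4:**
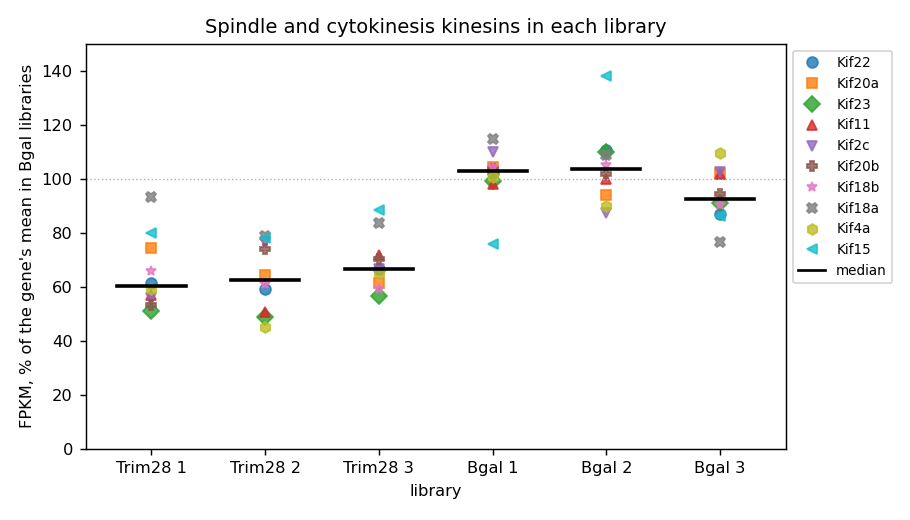
FPKM of the 10 tested spindle and cytokinesis kinesins in each library, as percent of the gene's mean over the Bgal libraries, with a black line at the median of the genes. The medians lie at 60.3% to 66.6% in the Trim28 libraries and 92.6% to 104% in the Bgal libraries.

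Promoters of the 3 spindle kinesins with the smallest p-values are printed because these genes fell together. They come from RefSeq on build GRCr8, where Kif22 lies at chr1:191080829-191081128 on the minus strand, Kif23 at chr8:71320535-71320834 on the minus strand and Kif20a at chr18:26504172-26504471 on the plus strand. Each runs from 250 bases before to 50 bases after the start, with the same motifs in capitals as for the Tuba1 genes.
Kif22: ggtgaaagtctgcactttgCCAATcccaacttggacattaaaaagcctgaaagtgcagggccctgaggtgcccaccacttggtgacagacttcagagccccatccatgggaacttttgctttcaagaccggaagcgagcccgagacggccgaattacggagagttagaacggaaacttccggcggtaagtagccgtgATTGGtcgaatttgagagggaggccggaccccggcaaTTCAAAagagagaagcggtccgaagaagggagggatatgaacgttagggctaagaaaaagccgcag
Kif23: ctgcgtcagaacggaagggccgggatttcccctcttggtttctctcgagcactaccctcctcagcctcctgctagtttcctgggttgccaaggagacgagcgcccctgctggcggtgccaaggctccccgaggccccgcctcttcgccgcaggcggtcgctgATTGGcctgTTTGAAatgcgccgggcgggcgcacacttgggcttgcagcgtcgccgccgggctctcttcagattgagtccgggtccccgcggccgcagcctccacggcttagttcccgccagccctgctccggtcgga
Kif20a: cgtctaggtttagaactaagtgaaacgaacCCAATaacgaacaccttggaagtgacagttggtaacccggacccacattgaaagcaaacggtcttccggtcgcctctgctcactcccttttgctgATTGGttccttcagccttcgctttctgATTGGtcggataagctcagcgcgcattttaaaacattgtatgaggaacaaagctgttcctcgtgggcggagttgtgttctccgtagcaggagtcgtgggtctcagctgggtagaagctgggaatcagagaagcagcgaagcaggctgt
Kif23 holds CCAAT in reverse, 88 bases before the start, and TTTGAA 79 bases before it. Kif22 holds CCAAT in reverse at 53 bases and TTTGAA in reverse at 16 bases before the start, and a further CCAAT at 231 bases. Kif20a holds CCAAT at 220 bases and, in reverse, at 125 and 98 bases, and neither TTTGAA nor TTCGAA. A single promoter entry was found for 46 of the 56 members. Among these, CCAAT was found in 6 of 9 spindle kinesins, and in 6 of the 7 of them that fell. It was found in 2 of 8 cargo motors, in 11 of 16 tubulins and in 37.5% of all 33469 promoters. TTTGAA was found in 5 of 9 spindle kinesins, among them 4 of the 7 that fell and Kif15, which did not pass. It was found in 0 of 8 cargo motors, in 3 of 16 tubulins and in 18.3% of all promoters. These counts describe letters in the window, with both strands searched, and no overlap between the motifs was seen in the 6 printed promoters.

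Of 4 tested kinesins of the cilium and of hedgehog signalling, 1 rose, 1 fell and 2 did not pass. Among all tested genes 20.1% were called higher and 21.1% lower. Kif7, a regulator of hedgehog signalling at the tip of the cilium, rose 1.499-fold, at 3.0, 2.58 and 2.36 FPKM in the Trim28 libraries, against 1.82, 1.89 and 1.59 FPKM in the Bgal libraries (log2 change 0.40, SE 0.11, limma adjusted p = 0.0211). Its call was lost without Trim28 replicate 1 (0.0714), Bgal replicate 1 (0.0522) or Bgal replicate 3 (0.0654), or without the filter (0.051). Kif3b, a heavy chain of the kinesin-2 that drives transport into the cilium, stood at 8.75, 8.32 and 8.36 FPKM in the Trim28 libraries, against 9.71, 9.67 and 10.1 FPKM in the Bgal libraries. That small fall (log2 change -0.19, SE 0.06, limma adjusted p = 0.0359) was lost without any 1 library (adjusted p 0.0645 to 0.0981) and under upper-quartile scaling (0.116). Its partners did not pass. Kif3a stood at 5.38 ± 0.595 FPKM in the Trim28 libraries and 5.62 ± 0.307 FPKM in the Bgal libraries (limma adjusted p = 0.658), and Kif3c at 2.80 ± 0.334 FPKM in the Trim28 libraries and 3.05 ± 0.0282 FPKM in the Bgal libraries (limma adjusted p = 0.465). Kif27, Kif9, Kif17 and Kif6 were too low to test, with 78, 18, 23 and 14 reads over the Trim28 libraries and 60, 22, 23 and 5 reads over the Bgal libraries. Of 10 motile cilium markers 9 were found, 1 was tested and 0 were called, and their sum was 2.85 to 3.57 FPKM in the Trim28 libraries and 2.05 to 3.02 FPKM in the Bgal libraries, with Mcidas listed at 0 in every library.

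GTTGCC, part of the X-box motif known to be bound by RFX factors, was found in 4 of 7 promoters of cilium and hedgehog kinesins, those of Kif3a, Kif3c, Kif27 and Kif9, and in 12.2% of all promoters. Of these, Kif3a and Kif3c did not pass, and Kif27 and Kif9 were not tested. Over all members with a single promoter entry it was found in 8 of 30 genes named Kif and 1 of 16 tubulins. Among them were Kif13a, which rose, and Kif23, which fell.

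Of the remaining members, Kif26b had the largest kinesin change. Kif26b (ENSRNOG00000028624, chromosome 13, 96775357 to 97173469, minus strand), a large kinesin-like protein of embryonic kidney and limb development, stood at 1.70, 1.63 and 1.63 FPKM in the Trim28 libraries, against 3.30, 3.31 and 3.54 FPKM in the Bgal libraries. Values within each group were close, and the gene was 2.05-fold lower (log2 change -0.72, SE 0.09, limma adjusted p = 0.000705). Its relative Kif26a stood at 1.22, 1.35 and 1.21 FPKM in the Trim28 libraries, against 0.956, 0.957 and 0.913 FPKM in the Bgal libraries, and did not pass (log2 difference 0.22, limma adjusted p = 0.113, 95% confidence interval -0.01 to 0.45). It was called higher with limma-voom (adjusted p = 0.0266) or without the intensity trend (0.0214). Kif2a takes microtubules apart at their ends and was counted apart from the spindle kinesins here. It did not pass, at 9.11 ± 0.867 FPKM in the Trim28 libraries and 9.39 ± 0.909 FPKM in the Bgal libraries (limma adjusted p = 0.762). Kif1bp stood at 15.8 ± 0.801 FPKM in the Trim28 libraries and 16.7 ± 0.727 FPKM in the Bgal libraries (limma adjusted p = 0.347). Kif24 and Kif19 were not tested, with 125 and 25 reads over the Trim28 libraries and 130 and 15 over the Bgal libraries. Kif2b had 8 reads in the Bgal libraries alone, and Kif12 and Kif28p had 3 reads each in the Trim28 libraries alone.

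Genes that fold tubulin fell in part while beta-tubulin rose. Of 20 tested folding genes, the cofactors, prefoldins and subunits of the chaperonin CCT, 10 fell, 1 rose and 9 did not pass. Among all tested genes 21.1% were called lower and 20.1% higher. The median log2 change of the folding genes was -0.16. Pfdn6, a prefoldin subunit, stood at 43.6 ± 2.29 FPKM in the Trim28 libraries and 68.6 ± 3.62 FPKM in the Bgal libraries (SD, n = 3 each, limma adjusted p = 0.000243). Tbca, a cofactor that holds free beta-tubulin, stood at 83.9 ± 4.24 FPKM in the Trim28 libraries and 122 ± 8.71 FPKM in the Bgal libraries (limma adjusted p = 0.000705). Pfdn1 stood at 86.2 ± 1.61 FPKM in the Trim28 libraries and 109.7 ± 5.44 FPKM in the Bgal libraries (limma adjusted p = 0.00136). The cofactor gene Tbcb, singled out once its values had been looked at, split the Trim28 libraries. Its level was 0.288, 11.9 and 20.9 FPKM in Trim28 replicates 1 to 3, against 0.509, 0.831 and 0.556 FPKM in the Bgal libraries, and did not pass (limma adjusted p = 0.105).

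Of 13 tested nucleation genes other than gamma-tubulin 2 rose and 3 fell, near the 20.1% higher and 21.1% lower of all tested genes. Nedd1, which anchors gamma-tubulin rings, rose 1.51-fold, at 9.29 ± 0.877 FPKM in the Trim28 libraries and 6.17 ± 0.230 FPKM in the Bgal libraries (limma adjusted p = 0.0024). Tubgcp2 and Mzt1, subunits of the ring, fell to 11.6 ± 0.434 and 22.0 ± 0.236 FPKM in the Trim28 libraries, against 14.9 ± 0.508 and 29.4 ± 3.39 FPKM in the Bgal libraries (limma adjusted p = 0.00334 and 0.00612).

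Of 24 tested microtubule-associated proteins 9 rose and 8 fell, against 20.1% higher and 21.1% lower among all tested genes. Their median log2 change was 0.07. Tppp3, which promotes tubulin polymerisation, stood at 34.5, 36.8 and 20.7 FPKM in the Trim28 libraries, against 1.81, 2.11 and 2.20 FPKM in the Bgal libraries (limma adjusted p = 6.94e-05). Mtus1, a microtubule-binding protein, stood at 27.9 ± 0.430 FPKM in the Trim28 libraries and 55.7 ± 3.65 FPKM in the Bgal libraries (limma adjusted p = 5.93e-05). Mapre3, a protein of growing plus ends, stood at 26.7 ± 1.02 FPKM in the Trim28 libraries and 38.05 ± 1.58 FPKM in the Bgal libraries (limma adjusted p = 0.000461). Among 6 tested stathmins and severing enzymes 1 rose and 1 fell. Stmn1, which holds tubulin dimers back from polymers and is high in dividing cells, stood at 7.80 ± 0.680 FPKM in the Trim28 libraries and 15.2 ± 1.19 FPKM in the Bgal libraries (limma adjusted p = 0.000299).

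Enzymes that modify tubulin mostly did not pass, with 1 of 16 higher, 2 lower and 13 not past the threshold. Among all tested genes 20.1% were called higher and 21.1% lower. Vash2, one of the enzymes that remove the terminal tyrosine of alpha-tubulin, stood at 7.10 ± 0.277 FPKM in the Trim28 libraries and 4.49 ± 0.538 FPKM in the Bgal libraries (SD, n = 3 each, limma adjusted p = 0.00251). Ttll12, of the tubulin ligase family, fell to 12.0 ± 0.764 FPKM in the Trim28 libraries, against 15.0 ± 1.29 FPKM in the Bgal libraries (limma adjusted p = 0.0183). Agtpbp1, which trims glutamate tails, fell to 23.8 ± 1.10 FPKM in the Trim28 libraries, against 26.9 ± 0.952 FPKM in the Bgal libraries (limma adjusted p = 0.0393).

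The minus-end motor dynein and its activator dynactin fell in part. Of 22 tested genes 11 fell and 0 rose, against 21.1% lower and 20.1% higher among all tested genes. The median log2 change of the 22 was -0.23, against -0.02 over all tested genes. Dctn6, of the dynactin pointed end, stood at 64.9 ± 1.00 FPKM in the Trim28 libraries and 98.7 ± 3.26 FPKM in the Bgal libraries (limma adjusted p = 0.000103). Dynll2, a dynein light chain, stood at 62.1 ± 2.66 FPKM in the Trim28 libraries and 90.2 ± 1.01 FPKM in the Bgal libraries (limma adjusted p = 0.000183), and Dynlrb1, another light chain, at 165 ± 10.6 FPKM in the Trim28 libraries and 253 ± 5.58 FPKM in the Bgal libraries (limma adjusted p = 0.000227).

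Partners of kinesins fell or did not pass. Of 10 tested light chains and cargo adaptors 4 fell and 0 rose, against 21.1% lower and 20.1% higher among all tested genes. The median log2 change of the 10 was -0.14. Klc4, a kinesin light chain, stood at 23.7 ± 0.106 FPKM in the Trim28 libraries and 28.9 ± 1.06 FPKM in the Bgal libraries (limma adjusted p = 0.00312). Trak2, which links kinesin-1 to mitochondria, stood at 134 ± 0.503 FPKM in the Trim28 libraries and 160 ± 6.07 FPKM in the Bgal libraries (limma adjusted p = 0.00312), and Kifap3, the adaptor of kinesin-2, at 7.62 ± 0.793 FPKM in the Trim28 libraries and 10.04 ± 0.538 FPKM in the Bgal libraries (limma adjusted p = 0.0125). Of the 4 motors whose symbols lie outside the Kif pattern, Kifc3 rose to 20.5 ± 0.617 FPKM in the Trim28 libraries, against 14.9 ± 1.02 FPKM in the Bgal libraries (limma adjusted p = 0.00148), Kifc2 rose (limma adjusted p = 0.0211), and the mitotic motors Kifc1 and Cenpe did not pass (limma adjusted p = 0.0646 and 0.328).

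**Figure D5:**
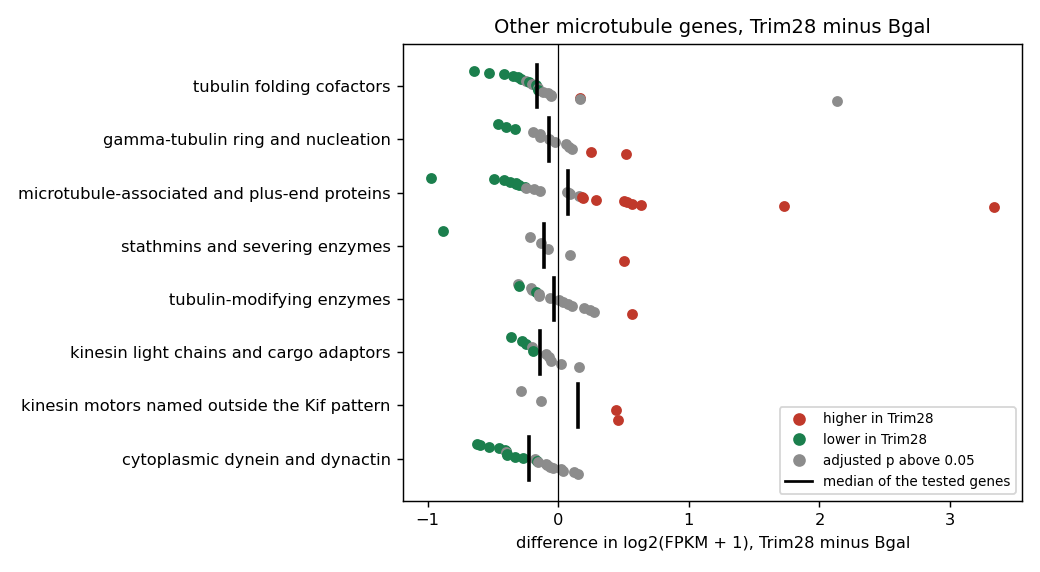
Differences in log2(FPKM + 1), Trim28 minus Bgal, for the tested genes of 8 further microtubule lists, a point per gene, with a black line at the median of each list. The dynein and folding lists have medians of -0.23 and -0.16. They hold 11 of 22 and 10 of 20 tested genes called lower, against 21.1% of all tested genes. Tppp3 is the point farthest to the right.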

How the data were processed

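The 6 libraries, 3 Trim28 and 3 Bgal, were made from poly(A) RNA with a strand-marking dUTP step, per the labels' protocols. The deposited values are FPKM, fragments scaled by gene length and library total, per the file headers. HISAT2 2.0.5 and DESeq2 were among the authors' tools, per the submitters' processing notes. The sources used here do not state the counter, the strand setting, the treatment of reads with several matches, the build or the annotation, so reads of overlapping antisense genes and of near-identical tubulin copies may be misplaced. FPKM times the deposited gene length gave whole reads for 100% of values above 0, within 0.01. No column belonged to another sample.

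Of 34510 genes, the 14808 that reached 0.5 FPKM in 3 or more libraries were tested on log2(FPKM + 1) in limma 3.58.1 (R 4.3.3, intensity trend, Benjamini-Hochberg adjustment over all of them). Tubulin sums were fitted as further rows. The fit was also run on simulated reads in which far fewer genes changed than were called here. That run does not measure the error of these calls and is not used as support. Shares and ratios were compared by exact permutation tests. Every test was two-sided. Since the files hold FPKM and not counts, recovered reads entered only the limma-voom alternative.

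Named are all tubulins, kinesins with a called log2 change of at least 0.5 in size, the 8 highest kinesins, the 2 smallest p-values per role and the 3 smallest called p-values per further list. The remaining members are given so that each is accounted for. A gene of the further lists that this rule names is not reported here. The members, lists and rules were chosen with earlier results of these data known. Promoters are from RefSeq on GRCr8, while gene coordinates are those of the deposited table.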

Additional observations from a re-analysis of the deposited data

How the results depend on the processing

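Besides leaving out each library, alternatives were a pseudocount of 0.1, no filter, a filter of 1 FPKM, the replicate block, limma-voom on recovered reads, median-of-ratios or upper-quartile scaling, and no intensity trend. Of 41 tested members 20 kept direction and call in all of them, 16 lost or gained a call and 5 changed sign in at least 1. With a library left out, tubulins called higher numbered 2 to 6 and lower 1 to 2, and genes named Kif called higher 2 to 4 and lower 8 to 10. Replicate numbers pair nothing in the labels. Deviations from the group means correlated at -0.0164, 0.1345 and 0.0091 between same-numbered libraries. Between differently numbered libraries the correlations lay from -0.0899 to 0.0839. With a replicate block, 2 tubulins and 8 genes named Kif were called lower. Tuba1b gained a call there (adjusted p = 0.0475), Kif3b lost its call (0.0748), and 4 of 10 tested spindle kinesins were called lower, with Kif4a (0.0518), Kif18b (0.0551), Kif20b (0.0789) and Kif2c (0.0931) lost. Without a filter or under upper-quartile scaling 6 of those 10 were called. With limma-voom, 3 tubulins were called lower, Tuba1a, Tuba1b and Tuba1c. Over left-out libraries the log2 change was -0.34 to -0.18 for the Tuba1 sum, 0.19 to 0.39 for the Tubb4 sum, 0.17 to 0.28 for the gamma-tubulin sum and 0.25 to 0.45 for the beta-tubulin sum. Without a filter, limma no longer called the Tuba1 sum (-0.26, adjusted p = 0.0885), the Tubb4 sum (0.30, 0.0912), the gamma sum (0.22, 0.0504) or the beta sum (0.36, 0.0522), with 23443 genes tested. Without the trend the first 3 were lost at the same log2 values (0.0711, 0.0726 and 0.0556), and the Tuba1 sum also under upper-quartile scaling (-0.20, 0.0646). The cause was not tested. Signs changed for members that were not called. Log2 ranges over left-out libraries were -0.23 to 0.0314 for Tuba8 (without Trim28 replicate 3), -0.23 to 0.0765 for Tubb2b (Trim28 replicate 2), -0.12 to 0.0167 for Kif3a (Trim28 replicate 1), -0.0986 to 0.0321 for Kif2a (Trim28 replicate 3, and 0.026 without Bgal replicate 3) and -0.20 to 0.00896 for Kif15 (Bgal replicate 2), with 0.0111 for Kif2a under upper-quartile scaling. The Tuba3 sum was under the filter and had no test. Reads limit the lowest genes, and those with few reads carry no direction.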
